A study of Mus musculus with 20 samples.

Results

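Of the 9600 cDNA clones on the MA07 array, 357 (3.72%) gave more lung RNA signal after thoracic radiation in mice on both diets. They were chosen by the authors' processed intensities, floored at 0.05, put on the log2 scale and averaged per group. A member had to lie at least 0.5 log2 higher in irradiated than in untreated mice. It also had to lie at least 0.5 higher in mice given both treatments than in mice given flaxseed alone, with a mean over the 10 irradiated arrays at or above 0. On this scale 0 is the median spot of an array, so the last condition keeps clones at or above the middle of the intensity range. The radiation differences and the irradiated level therefore chose the members, and they are given below as a description. Counts of members past a whole-table test of these contrasts stand beside the share of all clones, and nothing is read from them.

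The 20 samples were lungs of C57BL/6 mice, an inbred strain widely used in radiation research, read on 1 array per mouse with 5 mice per group. Untreated mice received neither treatment, and the second group ate a diet with 10% flaxseed over 21 days. The third group received 13.5 Gy to the thorax and was killed 48 h later, and the fourth received the diet and then the same radiation, with the same 48 h interval. RNA was total RNA of whole lung tissue, labelled with radioactive phosphorus by reverse transcription. In such bulk tissue, more cells of a type and more RNA per cell cannot be told apart. No source used here gives the base diet, sex or age of the mice.

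Ionising radiation breaks DNA, and in mammalian cells this activates the p53 pathway, which halts the cell cycle, induces repair and can lead to cell death. In lung, the first days after thoracic radiation come before the inflammatory phase known as radiation pneumonitis and the later fibrosis. Flaxseed is rich in lignans and in alpha-linolenic acid and has been studied in mice as a dietary protectant of irradiated lung. Which of these genes, if any, lie among the members cannot be said, because the files give each spot a serial clone ID and do not pair it with a gene or a sequence. Lung cell type markers could not be checked for the same reason, and clones are named below by ID only.

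The arrays differed in strength. Their median signal ran from 97.4 to 336 intensity units and their median background from 13.4 to 46.7. Without flaxseed, 4 of the 5 irradiated and 1 of the 5 untreated mice lay among the 10 arrays of higher background, and with flaxseed 2 of 5 irradiated and 3 of 5 unirradiated mice did. Members were read well above background: 351 of them (98.3%) exceeded 2 times the local background on all 20 arrays, as did 4723 (99.0%) of the 4773 clones that met the rule's level condition. The processed table held a constant of 0.002 in 3558 of its cells, 1.85% of all, in place of the measured intensity. Members held 4 such values, in 2 clones.

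Per mouse, the mean log2 level of the members was 2.11, 1.71, 1.90, 1.88 and 1.75 in the 5 untreated mice, and 1.57, 1.56, 1.495, 1.58 and 1.67 in the 5 flaxseed mice. It was 2.77, 2.46, 2.64, 2.73 and 2.31 in the 5 irradiated mice without flaxseed, and 2.47, 2.48, 2.29, 2.48 and 2.42 in the 5 with both treatments. Every irradiated mouse lay above every unirradiated mouse. The rule sets the gap between group means within each diet, so the choice of members favours this separation, and nothing is read from it. The group means rose in the order flaxseed (1.58 ± 0.065, SD, n = 5), untreated (1.87 ± 0.16), both treatments (2.43 ± 0.081) and radiation (2.58 ± 0.19). The flaxseed and untreated mice did not overlap on this scale, while the mice of both irradiated groups did. In scanner units, the median member spot read 293 to 805 in unirradiated and 561 to 2051 in irradiated mice.

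**Figure D1:**
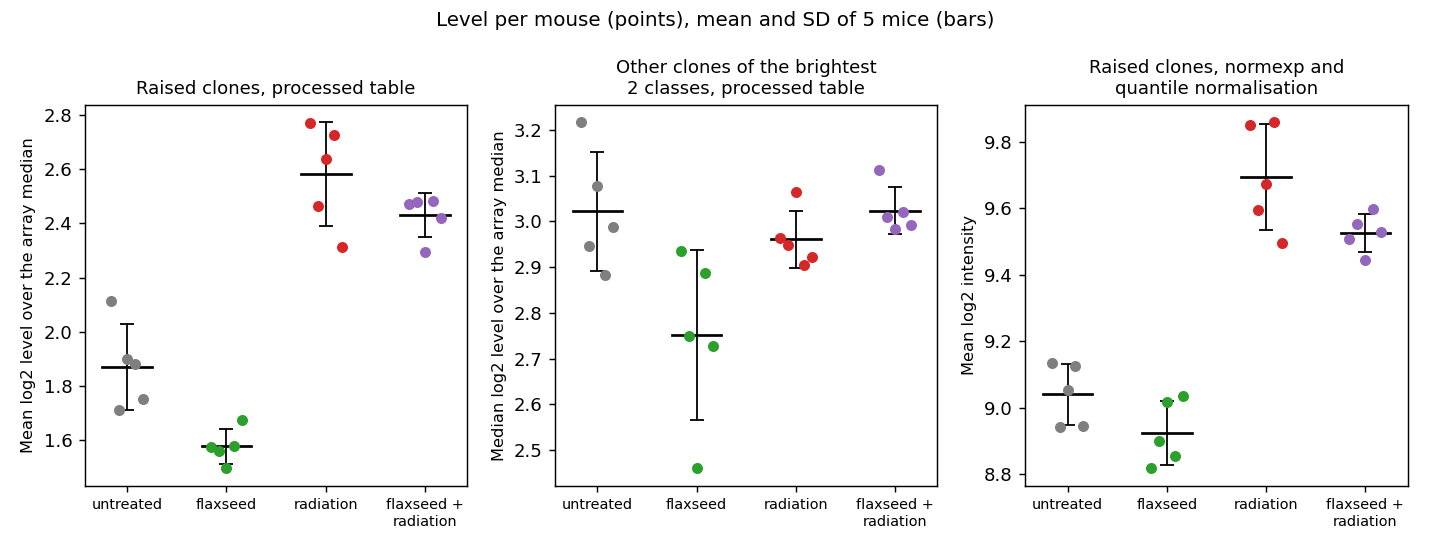
Level of the 357 raised clones in each of the 20 mice (points, 5 per group), with the mean and SD of each group as bars. The left panel shows the mean log2 processed value over the array median, the middle panel the median of the other clones of the brightest 2 of 10 brightness classes on the same scale, and the right panel the members after normexp correction and quantile normalisation, in log2 intensity. The irradiated mice lie between 2.29 and 2.77 on the left and the unirradiated mice between 1.495 and 2.11.

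Other bright clones showed a separation with flaxseed but not without it. The other clones of the brightest 2 of 10 brightness classes (1920 clones in all) had a median log2 level of 2.88 to 3.22 in untreated, 2.46 to 2.94 in flaxseed, 2.91 to 3.07 in irradiated mice and 2.98 to 3.11 in mice with both treatments. These clones were brighter than the members. Averaged over unirradiated mice their median level was 2.89, against 1.76 for the members, and over irradiated mice 2.99 against 2.57. In these other clones the irradiated and untreated mice overlapped. All 5 mice with both treatments lay above all 5 flaxseed mice, with group means of 3.02 and 2.75. The flaxseed group was the lowest of the 4 by this measure too, and its mouse 3, at 2.46, was the lowest mouse. After normexp background correction and quantile normalisation, which give every array the same spread of values, the members' mean log2 intensity was 8.94 to 9.13 in untreated and 8.82 to 9.03 in flaxseed mice, which then overlapped. It was 9.50 to 9.86 in irradiated and 9.45 to 9.60 in doubly treated mice.

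The radiation difference of a member had a median of 0.67 log2 without flaxseed (quartiles 0.58 and 0.79, highest 1.76), which is 1.60-fold. With flaxseed the median was 0.82 (quartiles 0.64 and 1.01, highest 1.78), or 1.77-fold. On this processed scale the difference was larger with flaxseed in 253 members and larger without it in 104. The order turned after normexp correction and quantile normalisation, where the medians were 0.62 without and 0.57 with flaxseed, and 147 members had the larger difference with flaxseed and 210 without it. On the processed scale the difference reached 1 log2 in 25 members without flaxseed, in 92 with flaxseed and in 10 in both. In all clones the medians on that scale were 0.018 and 0.012. Without flaxseed, 1100 clones (11.5%) met the condition on the difference, with flaxseed 1545 (16.1%) did, and 439 met both, of which 82 fell under the level condition. The clones that met both made up 39.9% of the first set and 28.4% of the second. Members were 7.48% of the 4773 clones at or above the array median in irradiated mice.

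**Figure D2:**
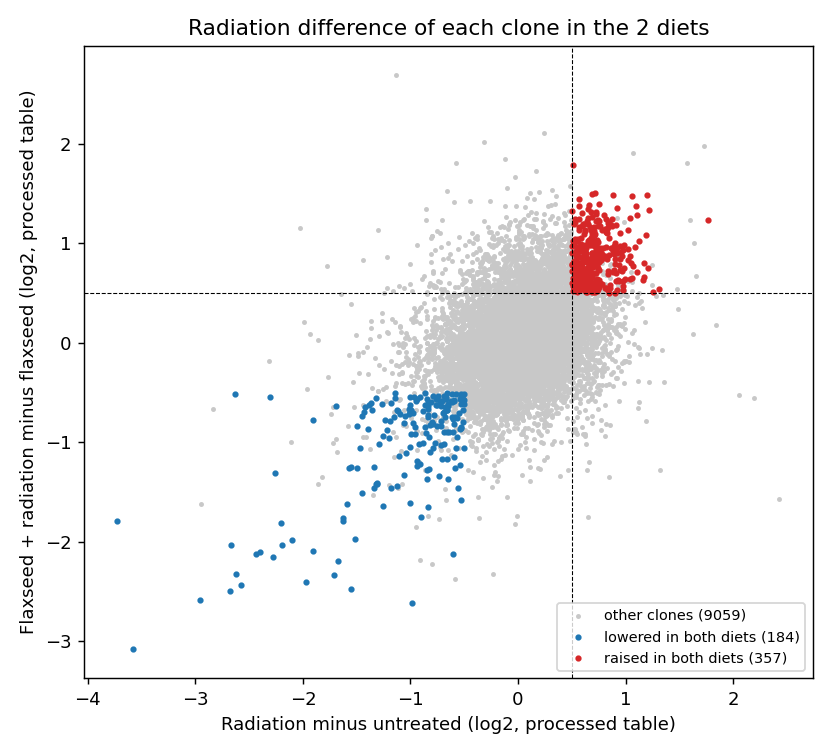
Radiation difference of each of the 9600 clones without flaxseed (x axis) and with flaxseed (y axis), in log2 of the processed table. The 357 raised clones lie beyond both dashed lines at 0.5, and 184 clones lowered by 0.5 or more in both diets, and at or above the array median in unirradiated mice, are shown for comparison. Clones beyond both lines but not in red fell under the level condition.

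Many members lay close to the threshold. The smaller of a member's 2 differences was under 0.55 in 80 members (22.4%), and 112 clones at or above the median missed the threshold by less than 0.05. The last clone inside was gene0674, whose smaller difference was 0.50017, and the first outside was gene3072, at 0.49976. The level condition decided fewer clones, with 6 members within 0.1 above it and 4 clones within 0.1 below.

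The whole table fits were read beside these values, although the rule had already used both contrasts. With limma on the quantile-normalised values and Benjamini-Hochberg adjustment over all 9600 clones, 14 members passed as raised without flaxseed (background 0.26% of all clones) and 39 with flaxseed (background 1.11%). Averaged over both diets 195 members passed (background 3.75%). All 5 irradiated mice lay above all 5 unirradiated mice in 41 members without flaxseed (background 1.16%) and in 136 with flaxseed (background 4.21%). All 10 irradiated lay above all 10 unirradiated mice in 6 members (background 0.0729%). Nothing is read from these counts. Over 10 other settings the 14 members called without flaxseed ran from 2 to 17, and were 3 with higher background as a term. That term largely runs with radiation in this diet, and the cause of these changes was not tested.

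The clone with the largest smaller-of-both difference was gene3436, with 1.76 without flaxseed and 1.23 with it. Its log2 values were 0.21, 0.54, -4.32, -0.17 and -4.32 in untreated mice and -0.11, 0.091, -4.32, -0.035 and 0.44 in flaxseed mice. Irradiated mice read -0.35, -0.20, 0.17, 0.47 and 0.68, and doubly treated mice 0.25, 0.50, 0.86, 0.66 and -0.075. The groups overlapped except for the 3 values of -4.32, which are the floor and stand for the constant 0.002. At those 3 spots the array tables held signals of 160, 120.85 and 298 units over backgrounds of 45.7, 39.2 and 102, so the spots were measured. From these signals, the quantile-normalised differences of gene3436 were 0.12 (SE 0.21) and 0.25 (SE 0.21). With the constant treated as missing, the rule chose 356 clones.

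The next clone, gene1249, rested on measured values throughout. It read -0.28, -0.58, -0.46, -0.68 and -0.29 log2 in untreated and -1.07, -1.49, -0.98, -0.40 and -0.90 in flaxseed mice. It read 0.83, 1.16, 1.19, 0.47 and 0.13 in irradiated and 0.65, 0.49, 0.19, 0.42 and 0.074 in doubly treated mice. All 10 irradiated mice were above all 10 unirradiated mice. The differences were 1.22 and 1.33 log2, or 2.32-fold and 2.52-fold, and 1.06 (SE 0.18) and 1.09 (SE 0.18) after quantile normalisation.

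**Figure D3:**
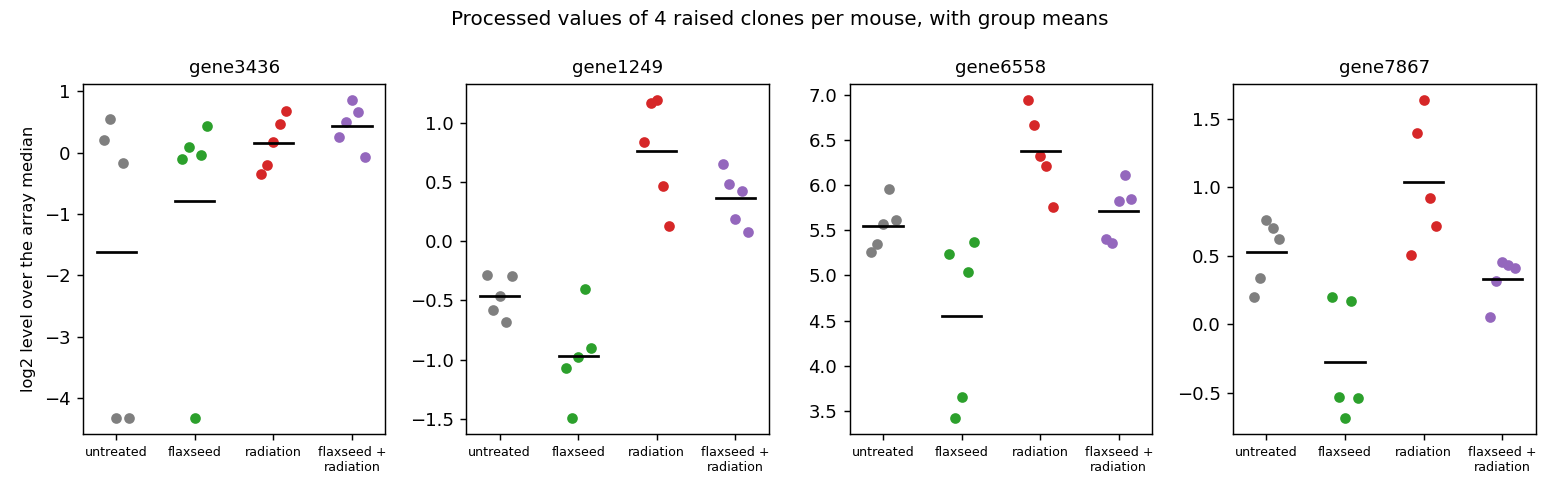
Log2 processed value over the array median of 4 raised clones in each of the 20 mice (points), with group means as lines. In gene3436 the 3 points at -4.32 are the floored constant, in gene1249 and gene6558 all 5 irradiated mice lie above the untreated mean in the diet without flaxseed, and gene7867 had the smallest flaxseed p among members that were lower with flaxseed.

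The brightest members in irradiated mice were gene6558 and gene4332, at 6.05 and 5.66 log2 over the array median. In untreated mice gene6558 read 5.26, 5.34, 5.57, 5.95 and 5.61, and in irradiated mice 6.95, 6.67, 6.32, 6.21 and 5.76. In flaxseed mice it read 5.24, 3.42, 3.65, 5.04 and 5.38, and in doubly treated mice 5.41, 5.36, 5.83, 6.11 and 5.84. The irradiated mouse 5 fell within the untreated range, and the lowest doubly treated mouse, at 5.36, fell just under the highest flaxseed mouse. In gene4332 the doubly treated mice read 5.70, 6.14, 4.64, 5.47 and 5.26 against 4.00, 4.51, 4.27, 4.40 and 4.95 in flaxseed mice, which also overlapped. No member spot reached the highest signal value of the arrays, 101691 units.

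Members were mostly bright clones. The level condition of the rule favours these, and bright clones also met the condition with flaxseed more often, as given below. Ranked by mean level over all arrays and split into 10 classes of 960 clones, 107 members lay in the brightest class and 126 in the next, together 233 (65.3%). Going down in brightness, the next 5 classes held 55, 26, 23, 16 and 4 members, and the dimmest 3 classes held none. The level condition, met by 4773 of the 9600 clones, keeps members out of the dimmest classes. The brightest 2 classes hold 1920 clones, so the 65.3% is to be set against a pool of 4773 and not of 9600. Of the 184 clones lowered by at least 0.5 in both diets and at or above the median in unirradiated mice, 82 (44.6%) lay in the brightest 2 classes.

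On the processed scale, brightness itself moved with radiation in the flaxseed-fed mice. All 1920 clones of the brightest 2 classes had a median radiation difference of -0.0026 log2 without flaxseed and 0.38 with flaxseed. After quantile normalisation these medians were -0.0036 and 0.092. A difference of 0.5 or more with flaxseed was met by 41.6% and 42.1% of the clones in the 9th and 10th class, counted from the dimmest, and by 4.06% to 10.7% in each of the dimmest 7. Members in the brightest 2 classes had a median difference with flaxseed of 0.86, which was 0.55 after quantile normalisation, and those in the other classes 0.75 and 0.63. The part of brightness in the choice of members was not tested. Applied to the values after normexp correction and quantile normalisation, the rule chose 193 clones, of which 187 were members. That alternative changes the background correction as well as the scaling, so the lower count does not single out brightness.

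Because each diet has its own 10 mice, the rise could be tested in mice that had not entered the choice. By the condition without flaxseed and the level in those irradiated mice alone, 627 clones were chosen, 356 of them members. In the flaxseed-fed mice, normalised and fitted by themselves, 543 (86.6%) of the 627 were higher after radiation, against 49.4% of all clones. Their median difference was 0.37 (quartiles 0.13 and 0.60), against -0.0047 for all clones and 0.66 for the same 627 in the mice that chose them. In limma with Benjamini-Hochberg adjustment, 33 (5.26%) passed as raised, against a background of 0.792%, and none passed as lower. At an unadjusted p under 0.05, 213 (34.0%) were higher in limma, against 8.77% of all clones. The median was 0.45 in the 291 chosen clones of the brightest 2 classes, where all clones had 0.090, and 0.29 in the other 336, where all clones had -0.016. The count of 33 was 28 without mouse 4 of the flaxseed group and between 4 and 19 without any other single mouse of the 10.

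In the other direction, 1262 clones were chosen by the flaxseed-fed mice, 353 of them members. In the 10 mice without flaxseed, 966 (76.5%) were higher after radiation, against 51.4% of all clones, with a median of 0.27 (quartiles 0.014 and 0.50), against 0.010 for all clones and 0.76 in the mice that chose them. Limma called 5 (0.396%) raised after adjustment, against a background of 0.115%, and 1 lower. At an unadjusted p under 0.05, 291 (23.1%) were higher in limma, against 6.88% of all clones. The count of 5 was 12 without mouse 5 of the radiation group, 5 without its mouse 2, and between 0 and 3 without any other single mouse. Clones share the same arrays, so these shares do not count independent observations. In both directions the chosen clones had also met a level condition, while the shares beside them are of all clones. The arrays of both diets also shared a shift with place on the membrane, given below. In the upper rows all clones had median differences of 0.12 without and 0.078 with flaxseed. What part place had in these shares was not tested. Over 5 other ways of processing, removal of the membrane trend among them, the count of 33 ran from 22 to 160 and the count of 5 from 0 to 14. The share of all clones called under each is not set beside these ranges, and nothing is read from them. On the processed scale, 357 (56.9%) of the 627 and 353 (28.0%) of the 1262 met the condition of 0.5 in the other diet, against 16.1% and 11.5% of all clones.

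Flaxseed was compared next, as the difference between mice with and without it averaged over radiation. The rule set no condition on this difference, but it comes from the same groups of mice, whose unequal spread is given below. The members' median difference was -0.13 log2 (quartiles -0.29 and 0.0086), against 0.0037 for all clones, 0.0084 for the other clones of the brightest 2 classes and 0.22 for the 184 lowered clones. It was below 0 in 264 members (73.9%), against 49.1% of all clones. No clone passed limma's test after Benjamini-Hochberg adjustment (background 0%), and the smallest adjusted p of a member was 0.210. At an unadjusted p under 0.05, 56 members (15.7%) were lower in limma, against a background of 4.67%, and 1 (0.28%) was higher, against 4.36%. Members share the same arrays, so these shares do not count independent observations. A clone's 95% interval reached 0.33 to either side at the median, so single differences the size of the members' median were not detectable here.

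**Figure D4:**
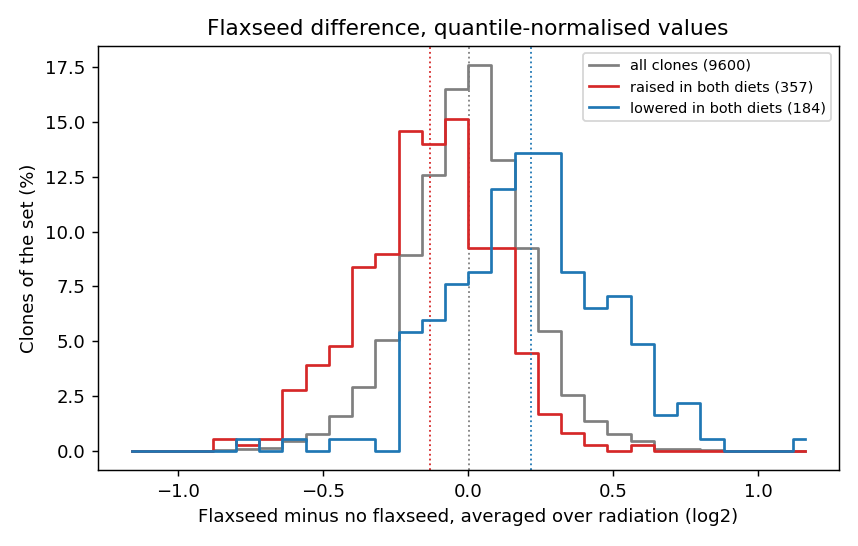
Share of clones (y axis, %) by the flaxseed difference averaged over radiation (x axis, log2, quantile-normalised values, in bins of equal width) for all 9600 clones, the 357 raised clones and the 184 lowered clones. Dotted lines mark the medians, which are 0.0037, -0.13 and 0.22, and values beyond the axis are counted in the outermost bins.

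The members' median lay below 0 with and without radiation. It was -0.11 in unirradiated mice, with 234 members (65.5%) below 0 against 48.6% of all clones. The median was -0.15 in irradiated mice, with 268 (75.1%) below 0 against 49.9%. The other clones of the brightest 2 classes had medians of -0.040 and 0.059. In unirradiated mice the 233 members of those classes had a median of -0.065, against -0.042 for all clones there, and the other 124 members had -0.17. In irradiated mice the same members had -0.15 and -0.16. Both comparisons share groups with the rule. The averaged difference is balanced against the rule only where the groups' spreads are alike, and the median SD of a member between mice was 0.44 in untreated, 0.43 in flaxseed, 0.43 in irradiated and 0.32 in mice with both treatments. What part this unequal spread had in the flaxseed difference was not tested. The averaged median was -0.14 within the 10 arrays of lower background and -0.19 within the 10 of higher background, but the first holds only 1 irradiated mouse without flaxseed and the second only 1 untreated mouse, so each value rests on a single array in that group.

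The member with the smallest p was gene7867. Its log2 processed values were 0.20, 0.34, 0.76, 0.70 and 0.62 in untreated and 0.20, -0.53, -0.68, 0.17 and -0.54 in flaxseed mice. Irradiated mice read 0.50, 1.39, 1.64, 0.92 and 0.72, and doubly treated mice 0.052, 0.31, 0.45, 0.43 and 0.41. With radiation every flaxseed-fed mouse lay below every other mouse, and without it the highest flaxseed mouse and the lowest untreated mouse were both at 0.20. The averaged difference was -0.66 (SE 0.14), with an adjusted p of 0.210 in limma. The member with the smallest p among those higher with flaxseed was gene2767, at 0.35 (SE 0.16) and an adjusted p of 0.520 in limma.

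Members varied together between mice of 1 group only loosely. The Pearson correlation of their deviations from the group means over the 20 arrays had a median of 0.083 over the 63546 pairs, of which 61.8% were above 0. For the 184 lowered clones the median was 0.046, and for the other clones of the brightest 2 classes 0.029. These are descriptions, since all clones of a mouse share its array and hybridisation. The first component of the members' deviations held 14.1% of their variation, against 25.8% for those other bright clones. The median within-group SD of a member was 0.44, against 0.49 for the other bright clones and 0.60 for the lowered clones.

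A few mice stood out in the members' mean deviation. Untreated mouse 1 lay 0.24 log2 above its group, with 76.8% of members above their group mean, and the irradiated mouse 5 lay at -0.27, with 27.7% above. Irradiated mouse 1 was 0.19 above. In untreated mouse 1 the other bright clones lay a median of 0.19 above theirs too, and in irradiated mouse 5 theirs stood at -0.03. The lowered clones had a mean deviation of 0.0083 in untreated mouse 1 and of -0.27 in irradiated mouse 5. Raised and lowered clones thus both lay low in irradiated mouse 5. The flaxseed mice stayed within -0.08 and 0.10 of their group mean.

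A member's correlation with the mean of the other members ranged from -0.55 to 0.80, with a median of 0.30. It was above 0 in 313 members and at least 0.5 in 63. The closest were gene2066, at 0.80, and gene0215, at 0.78. In irradiated mice gene2066 read 3.04, 2.42, 2.69, 3.49 and 1.79, and gene0215 read 3.22, 2.56, 3.25, 3.21 and 1.99. Mouse 5 was the lowest in both. In untreated mice gene0215 read 3.56, 2.30, 2.27, 1.61 and 1.39, with mouse 1 highest, while gene2066 read 2.27, 1.48, 2.42, 2.27 and 1.56.

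Co-variation was closer between members that lay near each other on the membrane. Place was read from the order of the spots, which run through 16 rows and 24 columns of blocks of 25 spots, with the clone IDs numbered block by block. Pairs of members within 5 spots of each other had a median correlation of 0.34, those 6 to 15 spots apart 0.16, those 16 to 40 apart 0.090 and those farther apart 0.052. After the median of the 15 by 15 spots around each spot was subtracted on each array, these medians were 0.16, 0.11, 0.11 and 0.099. Pairs of other clones were not split by distance, so closer co-variation of neighbours is not shown to be particular to members.

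Members were unevenly spread over the membrane. The upper 8 rows of blocks, the first in file order, held 272 members (76.2%), which is 11.0% of their clones at or above the median, and the lower 8 rows held 85, or 3.69%. The first row of blocks held 51 members, or 15.8% of its clones at or above the median, and the 13th and 15th rows held 5 each. By column of blocks the share ran from 3.41% in the 24th to 12.6% in the 7th. The lowered clones lay the other way, with 61 in the upper and 123 in the lower rows. Within blocks, lines 2, 3 and 4 held 303 members (84.9%), line 5 held 44 and line 1 held 10, which are 10.7%, 10.2%, 8.64%, 4.52% and 1.45% of the clones at or above the median in lines 2 to 5 and 1.

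**Figure D5:**
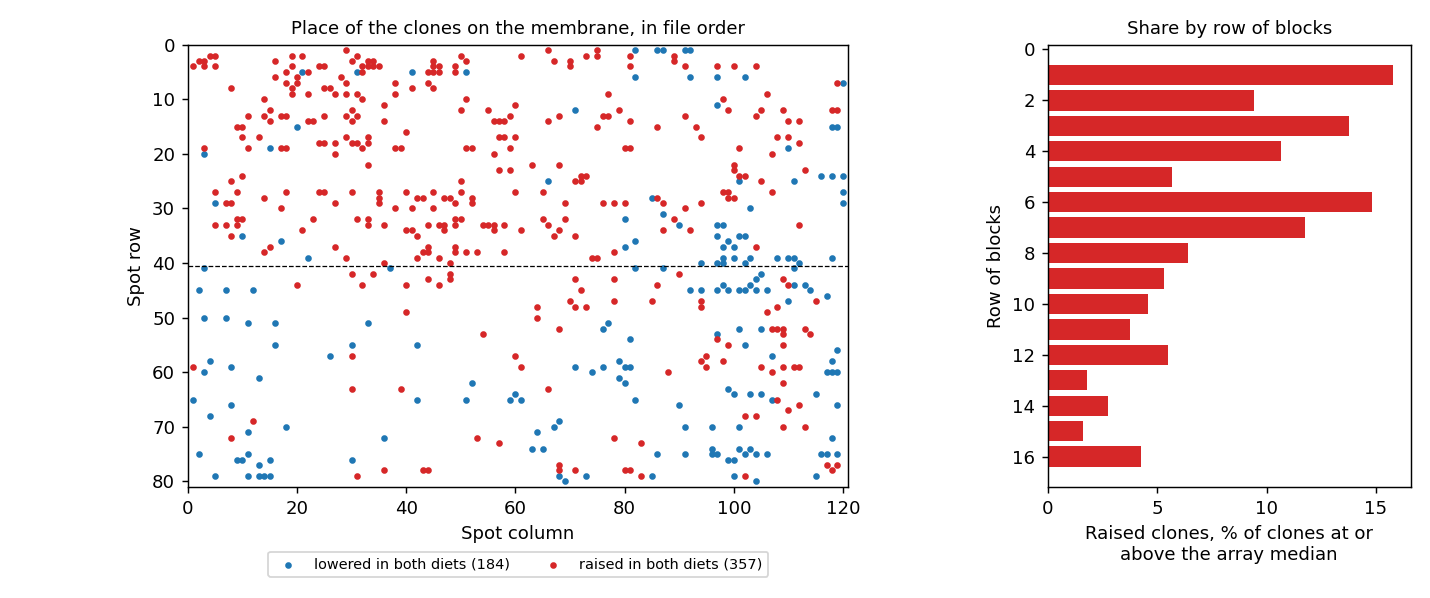
Left, place of the 357 raised and the 184 lowered clones on the membrane in file order (spot column and spot row), with a dashed line between the upper and lower 8 rows of blocks. Right, raised clones as a percent of the clones at or above the array median in each of the 16 rows of blocks. The upper rows hold 272 raised clones and the lower rows 85.

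Taken by upper and lower rows, the median of all clones shifted with place in the same direction. Single rows of blocks did not all follow: with flaxseed the 16th row had a median of 0.12, and the 2nd and 8th rows had -0.013 and -0.0099. The median radiation difference of all clones on the processed scale was 0.12 without and 0.078 with flaxseed in the upper rows, and -0.075 and -0.056 in the lower. The upper-minus-lower difference of an array had a mean of -0.16 in untreated, 0.014 in flaxseed, 0.076 in irradiated mice and 0.15 in mice with both treatments. The local background moved alike, with log2 means of -0.14, -0.021, 0.032 and 0.18. Of the members, 178 (49.9%) had another member among the 8 spots around them. The 1984 other clones beside a member had median differences of 0.17 and 0.080, against -0.038 and -0.028 for the 7259 beside none.

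With the local median subtracted on each array, the rule chose 224 clones, of which 184 were members. They lay 119 in the upper and 105 in the lower rows, a share of 53.1% in the upper. Normexp correction and quantile normalisation with the same subtraction gave 150 clones, 133 of them members, with 82 in the upper rows (54.7%). The flaxseed difference of the members on the processed scale after that subtraction was -0.19 in the upper and -0.26 in the lower rows, against -0.0050 and 0.0049 for all clones. Normexp with quantile normalisation, normexp with cyclic loess, and the local subtraction all kept 94 of the 357 members, and 137 (38.4%) met the rule with every mouse left out in turn.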

How the data were processed

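The authors deposited, per the file headers, the median signal and median background intensity of 9600 spots on each of 20 arrays, on a linear scale with the background not subtracted. They also deposited 1 table of processed intensities. Set against the array tables by file order, 98.1% of its values equalled signal minus background over the array's median difference, within a relative tolerance of 0.001, and the rest were the constant 0.002; no source used here says why. Its scale was linear, its columns had medians of 0.999 to 1, and its rows were not centred. Only 1.67% matched by ID number, so clone IDs follow the array tables. No source used here names the scanner, the software or any filter.

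The rule was applied to the processed table in Python 3.11.15 with pandas 2.3.3. Tests used the array tables: normexp with an offset of 16.3 (0.1 times the median signal), log2, quantile normalisation, and limma 3.58.1 in R 4.3.3 with 1 mean per group, 16 residual degrees of freedom, and Benjamini-Hochberg adjustment over all clones at 0.05, without a filter. The number of arrays limits precision. Each array was taken as 1 mouse, from the mouse numbers in the labels. Alternatives covered the floor, the constant, source and normalisation, membrane trend, thresholds, background and signal terms, array weights and each mouse left out. Clones were named by fixed rules: the largest smaller-of-both differences, the brightest, the edges of the threshold, the best correlation with the other members, and the smallest flaxseed p in each direction. Gene lists and cell type markers could not be applied, since no table pairs clones with genes. The members, lists and tests were chosen with earlier results of these data known.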

Additional observations from a re-analysis of the deposited data

Results flagged for a closer look

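Of 56 groups of 5 values examined with Dixon's test, 5 held a mouse that stood apart from the other 4, where chance alone flags about 1 group in 20, or 2.8 here. Among the arrays, untreated mouse 1 had a median background of 35.8 units, where the rest of its group had 15.8 to 18.6. The upper-minus-lower difference of all clones was 0.39 log2 in doubly treated mouse 2, against 0.049 to 0.14 in the other mice of that group. Among the named clones, gene3436 read -4.32 in flaxseed mouse 3, where the processed table holds its constant, against -0.11 to 0.44 in the others. The last clone inside the rule, gene0674, read 1.497 in untreated mouse 5 against 2.30 to 2.59. The first clone outside it, gene3072, read 0.60 in doubly treated mouse 2 against 1.83 to 1.93.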

How the results depend on the processing

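The count of 357 clones was 193 from the array tables with normexp correction and quantile normalisation, 148 with normexp and cyclic loess (both change the background correction as well as the scaling), 224 with the membrane trend removed, 150 with normexp, quantile normalisation and the trend removed (chosen after seeing the data), 562 at a rise of 0.4, 207 at 0.6, and 319 to 451 with 1 mouse left out. Members called raised without flaxseed, 14 in all, were 2 from the processed table, 9 with cyclic loess, 9 among the 4800 brightest clones, 3 with higher background as a term, 6 with median signal as a covariate, and 1 to 28 with 1 mouse left out: 28 without mouse 5 of the radiation group, 10 to 16 without mice 1 and 4 of the flaxseed group or mice 2, 3 and 4 of the doubly treated group, and 1 to 9 without any other. With flaxseed the 39 were 107 from the processed table, 164 with median scaling, 19 with cyclic loess, 16 with the signal covariate, 73 with array weights, and 13 to 45 with 1 mouse left out, with 13 to 25 without mice 2 and 3 of the flaxseed group or any doubly treated mouse. Averaged over diets the 195 were 316 with median scaling, 120 with the signal covariate and 142 to 211 with 1 mouse left out. The members' median difference with flaxseed, 0.57, was 0.82 from the processed table and 0.79 with median scaling, and averaged over diets, 0.60, it was 0.77 and 0.75. Of clones chosen without flaxseed, the 33 called with it were 102 from the processed table and 160 with median scaling, and 4 to 28 with 1 mouse left out. Of those chosen with it, the 5 called without it were 0 from the processed table, 2 with cyclic loess, 14 in 1 fit to all 20 arrays, and 0 to 12 with 1 mouse left out. The cause of these changes was not tested. These counts of called clones stand without the share of all clones under each setting, and nothing is read from them. The members' flaxseed median stayed between -0.21 and -0.11 in all alternatives run, with 0 members called except 1 without mouse 5 of the radiation group. Their median pairwise correlation stayed between 0.056 and 0.10, and no result changed sign. No paired analysis was possible because the mice are numbered 1 to 20 with no number shared between groups. No hybridisation batch is named in the labels used here.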
